A study of Mus musculus with 8 samples.

Results

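The genes described here are 52 components of the cell division machinery: the D-, E-, A- and B-type cyclins, their kinases (Cdks), the Cdk inhibitors, the retinoblastoma (pocket) proteins, the E2f transcription factors, the Cdc25 phosphatases with Wee1, the mitotic kinases and spindle checkpoint, and the proteins that license and copy DNA. They were taken by symbol from a fixed list, chosen with earlier results of these data known. All 52 were among the 23284 genes of the deposited table. RNA had been sequenced from 2 clones of mouse ES (embryonic stem) cells, both of mixed strain. Clone 6, the transgenic line, carries a Ctcfl transgene that doxycycline induces, and clone 7, the non-transgenic line, carries none. Ctcfl, also named BORIS, is a relative of the insulator protein Ctcf that is normally made in the male germline. Each line was grown off its feeder cells for 48 h, either with 2 µg/ml doxycycline or without it, which gave 4 groups of 2 libraries and 8 libraries in all. With 1 clone for each genotype, the effect of carrying the transgene and other differences between the clones cannot be told apart. The study asked which genes change when Ctcfl is induced, and whether doxycycline alone changes any.

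Cyclins are the regulatory subunits of the Cdks. D-type cyclins with Cdk4 or Cdk6 and cyclin E with Cdk2 phosphorylate the pocket proteins, which releases E2f factors to transcribe genes for DNA synthesis, and cyclin B with Cdk1 drives mitosis. The Ink4 inhibitors (encoded by Cdkn2a, Cdkn2b, Cdkn2c and Cdkn2d) block Cdk4 and Cdk6, while the Cip/Kip inhibitors (Cdkn1a, Cdkn1b, Cdkn1c) act mainly on Cdk2 complexes. ES cells are known for a short G1 phase, with high cyclin E and Cdk2 activity and little Ink4 protein.

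All values are group FPKM, that is, sequenced fragments divided by transcript length and by the number of mapped fragments, deposited as 1 value per gene and group for both libraries together. No value per library was used, so group values carry no SD and the depth of the libraries is unknown. Where 4 levels follow each other, they are those of the transgenic line with doxycycline, the transgenic line without, the non-transgenic line with and the non-transgenic line without. A gene was called changed where the deposited q-value, adjusted for multiple tests over all comparisons of the table, was under 0.05.

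The ES cell label was checked on 10 markers, which summed to between 4265 and 4564 FPKM in the groups, with Pou5f1 between 1011 and 1116 FPKM and the lowest value, 18.9 FPKM, that of Zfp42 in the non-transgenic line without doxycycline. Zfp42 was at 88.3, 58.8, 20.1 and 18.9 FPKM and Esrrb at 28.6, 19.7, 43.1 and 32.8 FPKM. Of 12 fibroblast (feeder) markers none was listed at 0 and 1, Lum, was under 1 FPKM in every group. The feeder markers summed to 247 and 245 FPKM in the transgenic line and to 186 and 190.1 FPKM in the non-transgenic line. Col1a1 led them, at 139.6, 131.6, 86.8 and 92.8 FPKM. Thy1 went the other way, at 25.3, 25.7, 26.9 and 25.9 FPKM, and Col3a1 and Pdgfra did not separate the lines. The other feeder markers were higher in both transgenic groups. Ctcfl itself was at 0.995, 0.403, 0.498 and 0.513 FPKM. It was 2.47-fold higher with doxycycline in the transgenic line in the authors' deposited table (p = 0.0062) and was not called there (q = 0.296), so the induction rests on levels under 1 FPKM. The transgene construct is not described in the sources used here. In bulk RNA, fewer cells of a type and less RNA per cell cannot be told apart. The summed level of the 52 genes was 3801, 3879, 4083 and 4121 FPKM, a ratio of 1.08 between the highest and the lowest group.

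Promoters of 6 genes are printed first, because the results below turn on their genes. Bub1b, E2f8, E2f2 and Ccne1 had the smallest p-values of the 52 genes between the lines, Cdkn2d had the smallest with doxycycline, and Cdk1 is an example of a level that was nearly the same in all groups. Each sequence is a RefSeq window on build GRCm38.p6, from 250 bases before to 50 bases after an annotated start, read 5′ to 3′ on the strand of the gene. Capitals mark 3 kinds of letters searched on both strands: the E2F-type TTTCCCGC, TTTGGCGC, TTTCGCGC or TTTGCCGC, the cell cycle homology region (CHR) TTTGAA or TTCGAA of mitotic genes, and CCAAT, the letters that the factor NF-Y binds. Of the windows listed for E2f2, the one at the start of the deposited locus is shown. The starts used for E2f8 and Cdkn2d lie inside the gene spans given below, which reach to 48882073 and 21291421 on the minus strand. The E2f8 window is wholly within its span, so sequence before the outermost start of that gene is not shown.
Bub1b, chr2:118597961-118598260, plus strand: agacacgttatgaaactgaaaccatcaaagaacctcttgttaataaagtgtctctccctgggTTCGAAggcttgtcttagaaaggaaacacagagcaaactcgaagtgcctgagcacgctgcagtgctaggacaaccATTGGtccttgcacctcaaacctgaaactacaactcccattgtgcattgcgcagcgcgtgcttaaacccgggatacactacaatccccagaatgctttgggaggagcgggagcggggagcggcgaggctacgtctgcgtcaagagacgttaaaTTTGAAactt
E2f8, chr7:48881547-48881846, minus strand: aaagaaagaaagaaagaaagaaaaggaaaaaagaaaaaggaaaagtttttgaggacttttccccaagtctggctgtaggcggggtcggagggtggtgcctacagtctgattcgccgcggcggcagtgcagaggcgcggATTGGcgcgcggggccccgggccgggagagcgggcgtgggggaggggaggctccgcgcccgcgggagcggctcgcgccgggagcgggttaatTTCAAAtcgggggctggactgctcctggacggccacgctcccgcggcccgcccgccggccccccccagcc
E2f2, chr4:136172024-136172323, plus strand: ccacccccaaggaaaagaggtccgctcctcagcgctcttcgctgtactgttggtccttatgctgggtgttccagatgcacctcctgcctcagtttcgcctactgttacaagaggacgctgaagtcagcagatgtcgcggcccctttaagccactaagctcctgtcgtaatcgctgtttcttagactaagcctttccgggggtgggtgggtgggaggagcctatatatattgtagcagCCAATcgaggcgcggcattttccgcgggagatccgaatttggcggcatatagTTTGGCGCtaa
Ccne1, chr7:38107441-38107740, minus strand: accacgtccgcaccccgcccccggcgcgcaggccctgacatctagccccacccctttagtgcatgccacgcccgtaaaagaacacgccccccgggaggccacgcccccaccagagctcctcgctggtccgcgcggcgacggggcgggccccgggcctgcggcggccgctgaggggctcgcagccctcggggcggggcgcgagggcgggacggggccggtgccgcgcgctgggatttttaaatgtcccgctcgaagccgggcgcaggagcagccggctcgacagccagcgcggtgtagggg
Cdkn2d, chr9:21291160-21291459, minus strand: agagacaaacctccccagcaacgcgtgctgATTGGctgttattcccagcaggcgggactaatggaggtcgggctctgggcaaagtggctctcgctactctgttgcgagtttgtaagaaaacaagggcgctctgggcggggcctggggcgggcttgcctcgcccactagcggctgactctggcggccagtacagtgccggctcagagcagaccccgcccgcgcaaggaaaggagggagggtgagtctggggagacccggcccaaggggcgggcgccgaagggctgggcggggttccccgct
Cdk1, chr10:69352863-69353162, minus strand: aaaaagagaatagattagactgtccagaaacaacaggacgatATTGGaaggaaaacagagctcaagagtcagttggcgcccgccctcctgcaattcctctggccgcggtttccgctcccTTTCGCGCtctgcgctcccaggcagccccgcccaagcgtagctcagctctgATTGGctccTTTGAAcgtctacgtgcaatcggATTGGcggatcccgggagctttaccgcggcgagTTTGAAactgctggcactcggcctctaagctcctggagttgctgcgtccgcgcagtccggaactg

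Counted from 1 at the 5′ end of its window, Cdk1 held E2F-type letters at 120 to 127, CHR letters at 180 to 185 and at 236 to 241, and CCAAT letters at 43 to 47, 171 to 175 and 203 to 207. Bub1b held CHR letters at 63 to 68 and at 291 to 296, the latter past its start, and CCAAT letters at 138 to 142. E2f8 held CHR letters at 231 to 236 and CCAAT letters at 139 to 143. In E2f2 the E2F-type letters stood at 290 to 297 and the CCAAT letters at 238 to 242. The Cdkn2d window held CCAAT letters alone, at 31 to 35, and the Ccne1 window held none of these letters, which says nothing of other spellings or of sites elsewhere.

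Windows were at hand for 40 of the 52 genes. E2F-type letters were in those of 13 (32.5%), against 704 of 27025 genes with a window (2.61%). CHR letters were in 18 (45.0%, against 21.7% of all genes) and CCAAT letters in 29 (72.5%, against 41.1%). The genes with E2F-type letters were Cdk1, Cdk2, Cdkn2a, Rbl1, E2f2, E2f3, E2f7, Cdc25a, Mcm3, Mcm5, Mcm6, Mcm7 and Cdt1, that is, mostly genes of the G1 to S transition and of licensing. The genes with CHR letters were Ccnb2, Cdk1, Cdkn2b, Rbl2, E2f2, E2f3, E2f8, Cdc25b, Aurka, Plk1, Bub1, Bub1b, Cdc20, Mki67, Top2a, Mcm2, Mcm7 and Fbxo5, of both mitotic and other roles. A gene was counted where any of its windows held the letters, and the CHR letters of E2f2 were in a window that is not printed. The 27025 genes were not limited to expressed genes or matched for the number of windows, so these shares are a description. The median ratio of the highest to the lowest group was 1.11 over the genes with E2F-type letters and 1.15 over those with a window without them. It was 1.14 with CHR letters and 1.13 without.

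The levels of the 52 genes spanned from 0.792 FPKM on average at Cdkn2c to 455 FPKM at Cdk4. On average over the groups 40 of them were at 10 FPKM or more and 14 at 100 FPKM or more. None was listed at 0, and 51 were at 1 FPKM or more in every group, the exception being Cdkn2c. Cdk4 was the highest, above 98.2% of the 12156 genes that averaged 1 FPKM or more.

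**Figure D1:**
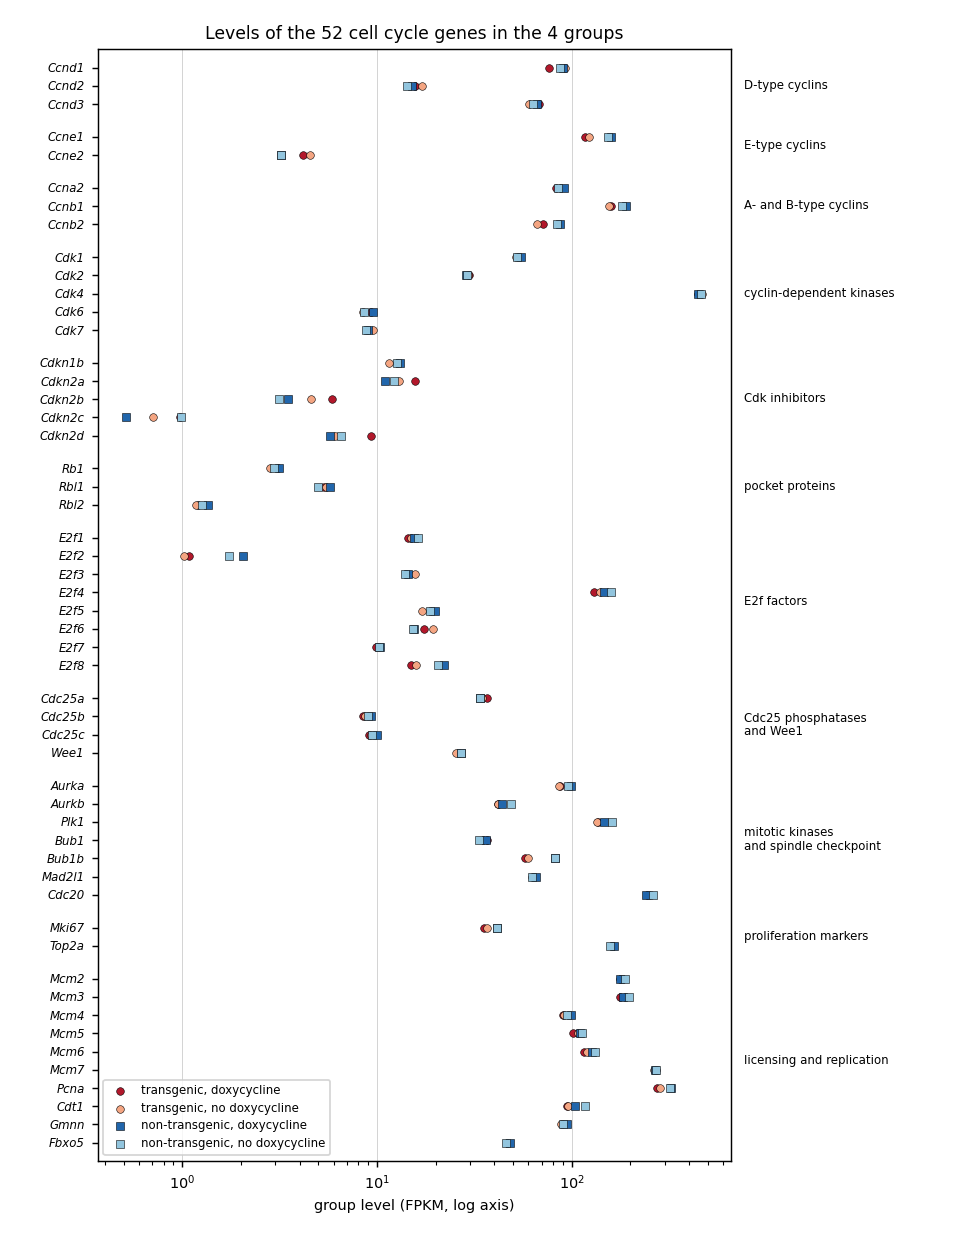
Deposited group level of each of the 52 genes in FPKM on a log axis, with circles for the transgenic and squares for the non-transgenic line, dark with and light without doxycycline, grouped by role. Most genes show 4 nearly superposed points, and the Ink4 genes Cdkn2a, Cdkn2b, Cdkn2c and Cdkn2d, E2f2, E2f8, Bub1b and Ccne2 show the widest gaps.

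Among the D-type cyclins, which couple growth signals to the cell cycle, Ccnd1 was at 76.0, 92.2, 90.5 and 86.8 FPKM, Ccnd3 at 68.0, 60.7, 66.6 and 63.1 FPKM and Ccnd2 at 15.7, 17.0, 15.1 and 14.3 FPKM. The lowest Ccnd1 group was the transgenic line with doxycycline. Of the E-type cyclins, which act at entry into S phase, Ccne1 was at 118, 123, 160.1 and 154 FPKM and Ccne2 at 4.16, 4.54, 3.22 and 3.21 FPKM. Both transgenic groups lay below both non-transgenic groups for Ccne1 and above them for Ccne2. Neither gene was called, and Ccne2 shares its deposited locus with Ints8. Ccna2, the S and G2 phase cyclin, was at 83.5, 86.8, 91.1 and 84.8 FPKM. The mitotic cyclins were lower in both transgenic groups than in both non-transgenic groups, Ccnb1 at 159.9, 155 and 189.6, 181 FPKM and Ccnb2 at 71.1, 66.2 and 87.2, 83.6 FPKM, and neither was called.

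Kinase levels were flatter than cyclin levels. Cdk4, the main partner of the D-type cyclins, was at 447, 469.9, 444 and 461 FPKM, while Cdk6, its close relative, was at 9.37, 8.50, 9.52 and 8.57 FPKM. Cdk2, the partner of cyclins E and A, was at 29.6, 29.3, 28.8 and 28.9 FPKM, a ratio of 1.03 between the highest and lowest group. Cdk1, the mitotic kinase, was at 53.8, 51.6, 55.1 and 52.6 FPKM and Cdk7, the Cdk-activating kinase, at 8.85, 9.58, 8.97 and 8.78 FPKM. Summed over these 5 kinases, the levels differed by a ratio of 1.04 between the highest and lowest group.

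Among the Cdk inhibitors, 3 genes (Cdkn2b, Cdkn2c and Cdkn2d) differed by more than 1.5-fold between their highest and lowest group, while Cdkn1b differed by 1.14-fold. Cdkn2d, which encodes p19Ink4d (chromosome 9, 21288459 to 21291421), was at 9.28, 6.11, 5.74 and 6.55 FPKM. Cdkn2b, which encodes p15Ink4b (chromosome 4, 89306289 to 89311032), was at 5.90, 4.56, 3.50 and 3.15 FPKM. Its neighbour Cdkn2a (chromosome 4, 89274473 to 89294619), from which both p16Ink4a and the p53 activator p19Arf are made, was at 15.7, 13.0, 10.9 and 12.2 FPKM. The table gives Cdkn2a 1 value, so the Ink4a and Arf transcripts are not separated. For all 3 the highest group was the transgenic line with doxycycline. Cdkn2c, which encodes p18Ink4c, was at 0.970, 0.703, 0.515 and 0.980 FPKM, the lowest of the 52 genes, and its ratio of 1.90 between groups rests on levels under 1 FPKM. Cdkn1b, which encodes p27Kip1, was at 12.7, 11.6, 13.1 and 12.7 FPKM.

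Of the pocket proteins, which hold E2f factors inactive, Rb1 was at 3.09, 2.83, 3.14 and 2.96 FPKM, Rbl1 (p107) at 5.33, 5.47, 5.72 and 4.98 FPKM and Rbl2 (p130) at 1.20, 1.17, 1.35 and 1.25 FPKM. None passed 6 FPKM in any group. The E2f genes ranged far more widely from one to another. E2f4, which acts mainly with pocket proteins as a repressor, was the highest at 131, 139, 147 and 159 FPKM, and the activator E2f2 (chromosome 4, 136172274 to 136196057) the lowest at 1.08, 1.03, 2.04 and 1.73 FPKM. The activators E2f1 and E2f3 were at 14.4, 15.0, 15.4, 16.3 FPKM and at 14.1, 15.7, 14.4, 14.0 FPKM. The atypical repressor E2f8 (chromosome 7, 48866429 to 48882073) was at 14.9, 15.9, 22.0 and 20.6 FPKM, with both transgenic groups below both non-transgenic groups, as for E2f2. Its relative E2f7 stayed between 9.87 and 10.3 FPKM. E2f5 was at 18.6, 17.0, 19.9 and 18.6 FPKM and the repressor E2f6 at 17.3, 19.4, 15.5 and 15.3 FPKM, the latter higher in both transgenic groups.

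Cdc25a, a phosphatase that activates Cdk2 and Cdk1, was at 36.8, 34.6, 34.0 and 33.7 FPKM, and Wee1, the kinase that opposes it, at 26.4, 25.4, 26.9 and 26.9 FPKM. Cdc25b was between 8.42 and 9.35 FPKM and Cdc25c between 9.06 and 9.96 FPKM. Of the spindle checkpoint genes, Bub1b (BubR1; chromosome 2, 118598202 to 118641592) was at 57.4, 59.4, 82.5 and 81.9 FPKM, with both transgenic groups below both non-transgenic groups. Its partners Bub1 and Mad2l1 were between 33.4 and 36.8 FPKM and between 62.2 and 65.5 FPKM in all groups, with no such gap. Cdc20, the activator of the anaphase-promoting complex, was the highest of this role at 244, 257, 242 and 263 FPKM. The mitotic kinases Aurka (86.5 to 99.6 FPKM), Aurkb (41.7 to 48.9 FPKM) and Plk1 (135.6 to 160.4 FPKM) were each lowest in a transgenic group and highest in a non-transgenic one. Mki67, the Ki-67 proliferation marker, was at 35.4, 36.9, 41.5 and 41.5 FPKM and the topoisomerase Top2a at 161, 163, 166 and 157 FPKM.

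Licensing genes, which load the replicative helicase onto origins, were high in all groups. The 6 subunits of that helicase were all at 89 FPKM or more. Mcm7 was at 271, 264, 269.6 and 269.8 FPKM, a ratio of 1.03 between the highest and lowest group and the smallest of the 52 genes. Mcm3 was between 177 and 196 FPKM, Mcm2 between 177 and 187 FPKM, Mcm6 between 115 and 131 FPKM, Mcm5 between 101 and 112 FPKM and Mcm4 between 89.8 and 99.0 FPKM. The sliding clamp Pcna was at 275, 284, 324 and 322 FPKM. Cdt1, which brings the helicase to origins, was at 95.1, 95.2, 104 and 117 FPKM, and its inhibitor Gmnn (geminin) at 89.3, 88.0, 94.2 and 90.5 FPKM. Fbxo5 (Emi1), which restrains the anaphase-promoting complex, stayed between 46.1 and 48.1 FPKM.

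The ratio of the highest to the lowest of the 4 groups summarises this evenness. Its median was 1.13 over the 52 genes, against 1.18 over the 11604 genes at 1 FPKM or more in every group. At 5 FPKM or more in every group it was 1.12 over 45 of these genes and 1.15 over all 8185. It was under 1.25 for 41 of the 52 genes (78.8%), against 65.1% of all genes at 1 FPKM or more, and over 2 for 0, against 3.37%. The highest ratios were 1.99 at E2f2, 1.90 at Cdkn2c, 1.88 at Cdkn2b and 1.62 at Cdkn2d. Levels and lengths differ between these sets of genes, so the comparison is a description.

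**Figure D2:**
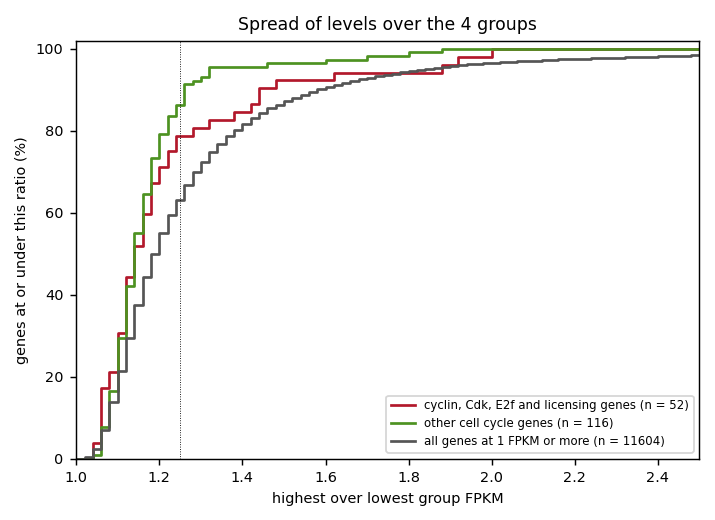
Percentage of genes (y axis) whose ratio of the highest to the lowest group FPKM is at or under the value on the x axis, for the 52 genes, 116 other cell cycle genes and all genes at 1 FPKM or more in every group, with a dotted line at 1.25. Both cell cycle curves lie above that of all genes around the dotted line, where 78.8%, 87.9% and 65.1% of the genes are under it, and no gene of either cell cycle set is over 2.

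With doxycycline in the transgenic line, where it induces the transgene per the labels, none of the 52 genes was called in the authors' deposited table (0 higher, 0 lower, 52 not called), where 14 of 13003 tested genes (0.108%) were. No member had an unadjusted p under 0.05, against 140 of all tested genes (1.08%). The smallest p of a member in the authors' deposited table was 0.0671 at Cdkn2d (1.52-fold, log2 0.60, q = 1.00 after rounding), followed by 0.113 at Ccnd1 (log2 -0.28). The median difference over the 51 genes at 1 FPKM or more in either group was -0.02 on the log2(FPKM + 1) scale, against 0.00 over all tested genes. For 42 of the 52 genes the 2 group levels were within 10% of each other, against 8234 of all 13003 tested genes.

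Of the 52 genes 24 were above 0 with doxycycline in the transgenic line (46.2%, against 50.1% of all tested genes) and 28 below. With FPKM rescaled by the median ratio, or to equal sums over all genes, the split was 26 above and 26 below. By role, all 5 Cdk inhibitors among the 52 genes were above 0. Their log2 ratios were 0.60 for Cdkn2d, 0.46 for Cdkn2c, 0.37 for Cdkn2b, 0.28 for Cdkn2a and 0.14 for Cdkn1b, and none was called. The other Cip/Kip genes, which are not among the 52, were at -0.00 for Cdkn1a and -0.26 for Cdkn1c. Of the 10 licensing and replication genes 8 were below 0 and 2 above, and none differed by more than 0.10 on the log2 scale. Of the 8 E2f genes 6 were below 0, from -0.17 at E2f6 to 0.13 at E2f5. The cyclins were spread around 0, from -0.28 at Ccnd1 to 0.16 at Ccnd3. The 3 members with the largest falls on the log2(FPKM + 1) scale were Ccnd1, E2f6 and E2f3, and those with the largest rises Cdkn2d, Cdkn2b and Cdkn2a, none past the test.

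A gene that was not called is not shown to be unchanged, so intervals were formed from the deposited statistics. They are approximate, since the standard error was taken as the log2 ratio over the deposited test statistic, and can differ from what the deposited p-values imply. For 42 of the 52 genes the 95% interval lay within a 2-fold change in either direction with doxycycline in the transgenic line. That held for 8944 of all 13003 tested genes. Ccne1 had an interval from -0.51 to 0.38 on the log2 scale, Cdk1 from -0.55 to 0.67, and Pcna from -0.55 to 0.46. The intervals of the other 10 genes reached past a 2-fold change, among them those of Cdkn2d (-0.09 to 1.30), Cdkn2b (-0.33 to 1.08), Cdkn2a (-0.63 to 1.18) and Cdkn2c (-1.03 to 1.96).

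**Figure D3:**
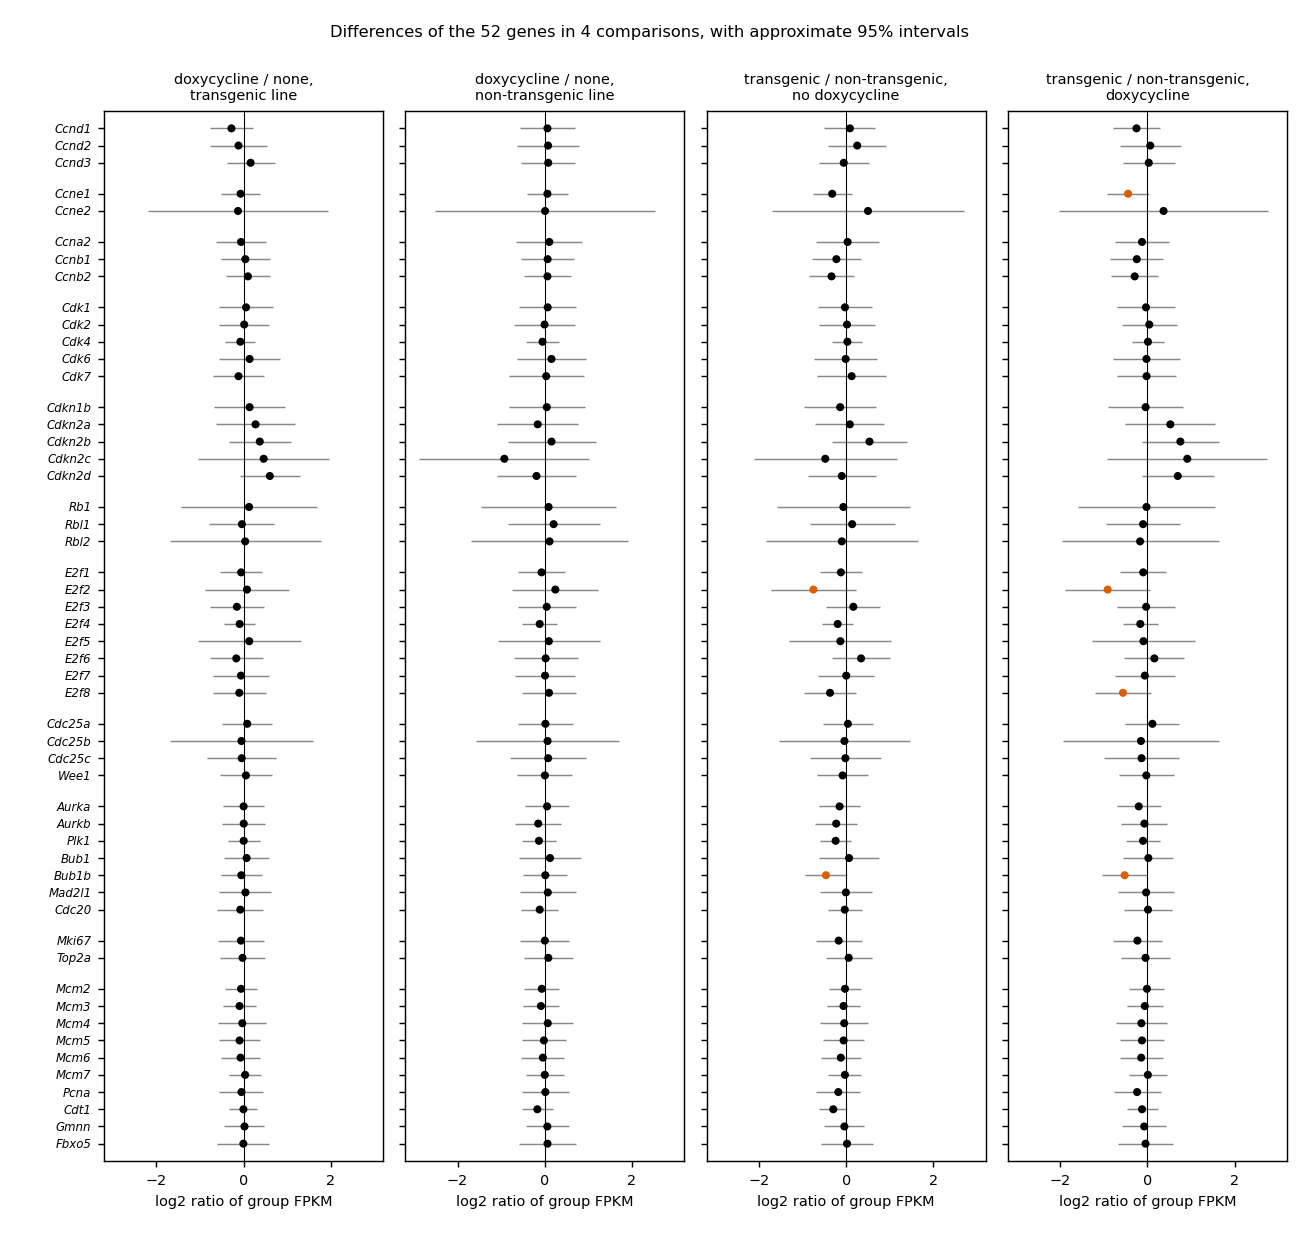
Log2 ratio of group FPKM (x axis, points) with its approximate 95% interval (grey lines) for each of the 52 genes in the 4 comparisons, with orange points where the unadjusted deposited p was under 0.05. Orange points stand only in the comparisons of the lines, 2 without and 4 with doxycycline, all below 0.

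In the non-transgenic line, where doxycycline meets no transgene, 0 of the 52 genes and 0 of 12908 tested genes (0%) were called in the authors' deposited table. No member had an unadjusted p under 0.05, against 14 of all tested genes (0.108%). The smallest p of a member in the authors' deposited table was 0.259 at Cdkn2c, whose levels of 0.515 and 0.980 FPKM are both under 1. The median difference was 0.04 on the log2(FPKM + 1) scale, against 0.02 over all tested genes, and 36 genes were above 0 (69.2%, against 57.7% of all tested genes) and 16 below. With FPKM rescaled by the median ratio the split was 29 above and 23 below. The 3 largest rises were those of Rbl1, E2f2 and Cdk6 and the 3 largest falls those of Cdkn2c, Cdt1 and Cdkn2d, none past the test. All 3 D-type cyclins, all 3 A- and B-type cyclins and all 3 pocket protein genes were above 0, by 0.20 or less on the log2 scale.

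The responses of the lines were set against each other directly. Of the 52 genes 17 were above 0 in both lines, 9 were below 0 in both, 7 were above 0 only in the transgenic line and 19 above 0 only in the non-transgenic line. The normal test of the difference, made from the authors' deposited statistics with Benjamini-Hochberg adjustment over 12638 genes, called 0 of the 52 genes, against 18 of all genes (0.142%). With standard errors taken from the deposited p-values the test called 0 of all genes as well. The test gave no member a p under 0.05. Its smallest p among the members was 0.168 at Cdkn2d, computed from the authors' deposited test statistics (difference of the log2 responses 0.80, SE 0.58, adjusted p = 1.00 after rounding). The difference was 1.39 for Cdkn2c (SE 1.25), 0.44 for Cdkn2a (SE 0.66) and -0.34 for Ccnd1 (SE 0.41), each transgenic minus non-transgenic. These standard errors are as large as the differences or nearly so.

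**Figure D4:**
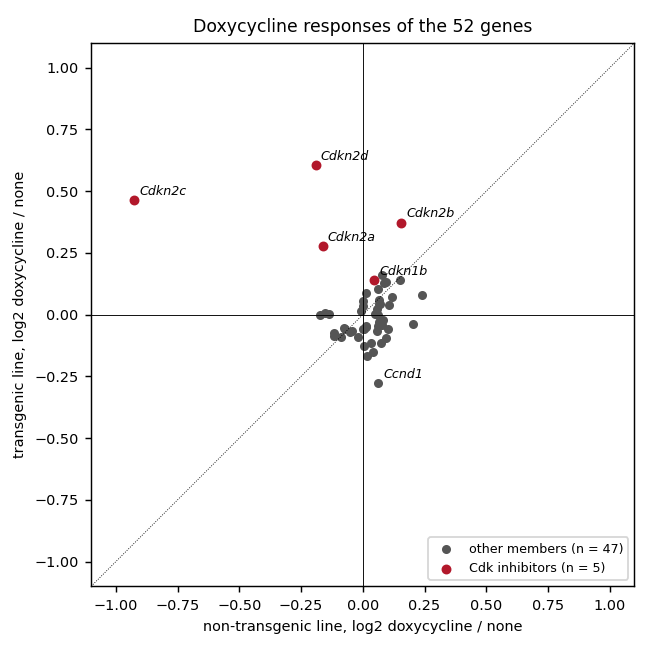
Log2 ratio of doxycycline over none for each of the 52 genes in the non-transgenic line (x axis) and the transgenic line (y axis), with the 5 Cdk inhibitors in red and a dotted line of equal response. The inhibitors lie above the dotted line, Cdkn2d at 0.60 and -0.19 and Cdkn2c at 0.46 and -0.93, while the other 47 genes lie within about 0.3 of 0 on both axes.

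Between the lines without doxycycline 0 of the 52 genes were called in the authors' deposited table, against 179 of 13047 tested genes (1.37%). An unadjusted p under 0.05 was reached by 2 members, against 6.59% of all tested genes, a share of 3.85%. Bub1b was 1.38-fold lower in the transgenic line in the authors' deposited table (log2 -0.46, p = 0.0114, q = 0.436). E2f2 was 1.68-fold lower there in the authors' deposited table (log2 -0.75, p = 0.0427, q = 0.896), at 1.03 against 1.73 FPKM. E2f8 (log2 -0.37, p = 0.0757), Ccne1 (-0.32, p = 0.0846) and Ccnb2 (-0.34, p = 0.0880) followed in the authors' deposited table. The largest differences in the other direction were 0.42 at Cdkn2b, 0.40 at Ccne2 and 0.32 at E2f6 on the log2(FPKM + 1) scale, none past the test. The approximate 95% interval at Ccne2 was wide, from -1.71 to 2.71 on the log2 scale.

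Between the lines with doxycycline none of the 52 genes was called in the authors' deposited table, against 199 of 13064 tested genes (1.52%), and 4 had an unadjusted p under 0.05 (7.69%, against 7.90% of all tested genes). These were Bub1b (1.44-fold lower in the transgenic line, p = 0.00855, q = 0.366), E2f8 (1.48-fold lower, p = 0.0137, q = 0.479), E2f2 (1.88-fold lower, p = 0.0165, q = 0.533) and Ccne1 (1.36-fold lower, p = 0.0272, q = 0.709) in the authors' deposited table. The interval of the Bub1b difference ran from -1.04 to -0.01 on the log2 scale, and those of the other 3 genes reached past 0. For these 3 genes the approximate intervals were thus wider than their deposited p-values imply. On the other side, Cdkn2b, Cdkn2d and Cdkn2a were higher by 0.62, 0.61 and 0.49 on the log2(FPKM + 1) scale, with p of 0.0897, 0.0694 and 0.161 in the authors' deposited table. The shares of members with a small p were near or below those of all genes, so they do not set these genes apart.

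More of the 52 genes leaned down than up in the transgenic line, as did the other cell cycle genes described below. Both transgenic groups were below both non-transgenic groups for 23 genes (44.2%, against 32.5% of all genes at 1 FPKM or more in every group) and above them for 7 (13.5%, against 28.1%). The 23 include Ccne1, Ccnb1, Ccnb2, E2f1, E2f2, E2f4, E2f8, Aurka, Aurkb, Plk1, Bub1b, Mki67, Mcm4, Mcm5, Mcm6, Pcna and Cdt1, and the 7 are Ccnd2, Ccne2, Cdk2, Cdkn2a, Cdkn2b, E2f6 and Cdc25a. Most of these gaps are small. The median difference between the lines was -0.04 without and -0.06 with doxycycline on the log2(FPKM + 1) scale, against 0.00 and -0.02 over all tested genes. Without doxycycline the median was -0.08 when groups were scaled to equal sums, a scaling that also moved the median over all genes to -0.04. Of the 52 genes 35 (67.3%, against 50.2% of all tested genes) and 38 (73.1%, against 53.7%) were below 0 in these comparisons. Scaled to equal sums over all genes the counts were 40 and 41, where the medians over all genes were -0.04 and -0.03. Scaled by the median ratio the counts were 35 and 34. The higher sum of feeder markers in the transgenic line, given above, stands beside this lean, and its part in it was not tested.

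The rest of the cell cycle was followed in 119 further genes, of which 117 were in the table and 116 were tested. With doxycycline 0 were called in either line, and none had a p under 0.05 in the authors' deposited table. Between the lines 1 was called, both without and with doxycycline. This was Cdkn1a, which encodes the p53-induced Cdk inhibitor p21, at 63.7, 63.7, 35.9 and 35.4 FPKM. It was 1.80-fold higher in the transgenic line without doxycycline (q = 0.0145) and 1.77-fold higher with it (q = 0.0462) in the authors' deposited table. Doxycycline moved it by -0.00 and 0.02 on the log2 scale in the lines.

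Its relative Cdkn1c, the imprinted gene of p57Kip2, was at 30.5, 36.6, 46.9 and 51.8 FPKM, lower in both transgenic groups, with p of 0.00825 with doxycycline and 0.0171 without in the authors' deposited table, and was not called. Pttg1, which encodes the separase inhibitor securin, was at 72.3, 69.2, 38.5 and 40.4 FPKM (q = 0.0955 with and 0.175 without doxycycline in the authors' deposited table) and was not called. Mybl2 (B-Myb), a factor of the complex that turns on mitotic genes, was at 131.9, 102.8, 162.5 and 135.1 FPKM, higher with doxycycline in both lines and lower in the transgenic line at each, with none of these differences called. Tfdp2, an E2f dimer partner, was at 8.71 FPKM in the transgenic and 12.6 FPKM in the non-transgenic line with doxycycline and was not called. Over the 116 genes the median ratio of the highest to the lowest group was 1.13, the same to 2 decimals as over the 52 genes. Between the lines 78 of the 116 (67.2%) were below 0 without doxycycline and 92 (79.3%) with it. Their median differences were -0.08 and -0.11 on the log2(FPKM + 1) scale, so the lean was not particular to the 52 genes.

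**Figure D5:**
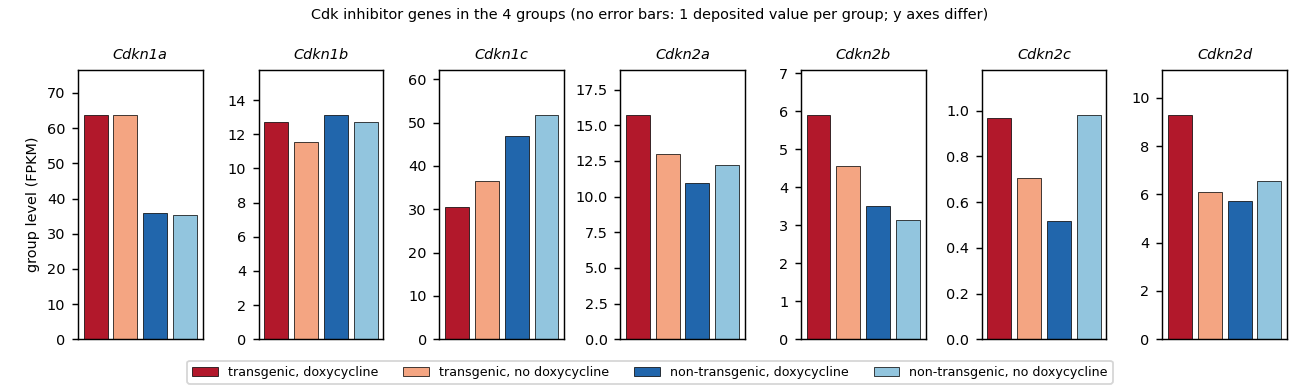
Group level in FPKM of the Cip/Kip genes Cdkn1a, Cdkn1b and Cdkn1c and the 4 Ink4 genes, with 1 bar per deposited group value, a y axis from 0 that differs between genes, and no error bars. Cdkn1a is higher in both transgenic groups (63.7 and 63.7 FPKM against 35.9 and 35.4 FPKM), and Cdkn2a, Cdkn2b and Cdkn2d are highest in the transgenic line with doxycycline.

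Some of these values are uncertain for the gene itself. The deposited locus was shared with another gene for 12 of the 52, among them Ccnd3 with Bysl, Ccna2 with Exosc9, Ccne2 with Ints8, Cdc20 with Elovl1 and Cdc25b with 12 other genes. The sources used here do not give the strand setting of the counting. RefSeq names pseudogenes after Ccnb1, Ccnb2, Ccnd3 and Pcna, which could share reads with them.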

How the data were processed

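Total RNA from 8 libraries was sequenced as 75 bp single-end reads, per the labels. TopHat2 2.0.8, Cufflinks 2.1.1 and build mm10 are named per the submitters' processing notes. The sources used here do not give the annotation, the strand setting, the normalization mode or the part each tool played. The file deposited by the authors is a table with the columns of Cuffdiff, holding FPKM per gene and group (2 libraries combined), a test statistic (a score) and p-values and q-values for 6 pairwise comparisons, of which 4 are used. The labels call the libraries biological replicates without saying more, so the deposited p-values may measure technical spread in part.

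From these, log2 ratios were computed from the deposited FPKM. Calls follow the deposited q under 0.05. Medians use log2(FPKM + 1) over genes at 1 FPKM or more in either group. The difference between responses was tested per gene by a two-sided normal test across all 12638 genes tested in both lines. The test was also run on simulated data, whose outcome is not given here. Genes named are all members by role, members with the largest differences, and other cell cycle genes with a small deposited p. The members and lists were chosen with earlier results of these data known. RefSeq positions (GRCm38.p6, the assembly of mm10) matched all 52 members. Python 3.11.15, pandas 2.3.3 and scipy 1.17.1 were used.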

Additional observations from a re-analysis of the deposited data

How the results depend on the processing

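None of the 52 genes was called in any of the 4 comparisons when p-values were adjusted within a comparison alone, at a q threshold of 0.10, or among genes at 5 FPKM or more, and all 12 such counts remained 0. With a pseudocount of 0.1, other expression minimums or other scalings, the medians ran from -0.03 to 0.002 for doxycycline in the transgenic line, which has no stable sign, from 0.03 to 0.04 in the non-transgenic line, and from -0.08 to -0.04 between the lines both without and with doxycycline. The tolerance of 0.1 set for these medians is larger than the medians themselves. The other cell cycle genes had 1 call between the lines with doxycycline, and 2 at a q threshold of 0.10 (Cdkn1a and Pttg1). The test of the difference between responses called 18 genes, none of them a member, and 0 with standard errors from the deposited p-value, which also called 0 members. The cause was not tested. No paired analysis was possible because the deposited table holds 1 value per group, and for the same reason no replicate could be left out. Depth is unknown.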
